A study of Mus musculus with 22 samples.

Results

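The 10 genes described here are the E2F transcription factors E2f1, E2f2, E2f3, E2f4, E2f5, E2f7 and E2f8 and the retinoblastoma family genes Rb1, Rbl1 and Rbl2, measured in bone marrow-derived macrophages (BMDM) of the mouse after treatment with LPS. All 13 array probes whose RefSeq accession belongs to these genes were taken, of 28103 probes tested for 22383 genes in all. The set was chosen by the measured values of E2f2, which was among the genes with the deepest LPS falls in wt BMDM, so that the comparison of LPS with medium in wt BMDM is given as a description with no test, and E2f2 is given no test in any comparison that uses wt arrays. E2F factors bind DNA next to genes needed for entry into S phase, and in resting cells the pocket proteins Rb1, Rbl1 (p107) and Rbl2 (p130) bind E2F proteins and hold these genes silent until cyclin-dependent kinases phosphorylate the pocket proteins. E2f1, E2f2 and E2f3 are the classical activators, E2f4 and E2f5 act with pocket proteins mainly as repressors, and E2f7 and E2f8 are atypical repressors that bind DNA without a DP partner. Macrophages grown in M-CSF divide in culture, and LPS is known to halt this division.

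BMDM were prepared from the femur of C57BL/6 mice (C57BL/6J in the study's methods) of 3 genotypes, labelled wildtype (wt), MK2-/- and MK2/3-/-, which lack the p38-activated kinase MK2 or both MK2 and its relative MK3. All mice were labelled male and were 10 to 14 weeks old, and all cells were differentiated for 9 days with 10 ng/ml M-CSF. By the study's methods, this was replaced shortly before the experiments with medium lacking M-CSF. Neither the LPS nor the medium samples were thus given M-CSF during the incubation. The cells were then incubated for 360 min with 100 ng/ml LPS (wt n = 3, MK2-/- n = 4, MK2/3-/- n = 4) or with medium alone (wt n = 4, MK2-/- n = 4, MK2/3-/- n = 3), and each of the 22 samples was hybridised to one array. The comparisons ask how LPS changes expression in each genotype and whether loss of MK2 or of both kinases alters the level or the LPS response.

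A short stretch of DNA, the E2F motif, is shown first, because E2F genes and their targets can carry it in front of their own start. The letters TTTCCCGC, TTTCGCGC, TTTGCCGC and TTTGGCGC were searched on both strands in RefSeq promoter windows of mouse build GRCm38.p6, from 250 bases before to 50 bases after each start. At least 1 match was present in 2.26% of all 32851 windows, and 2.6% of the 27025 genes had a window with one. Of the 7 members with a window, 4 had a match (4 of their 9 windows), E2f2, E2f3, E2f7 and Rbl1, whereas the windows of E2f1, E2f8 and Rbl2 had none of these letters. The stretches around the matches are printed 5′ to 3′ on the strand of the gene with the match in capitals. They lie at chr4:136172302-136172323 (E2f2, + strand, match starting 40 bases after the start), chr13:29986064-29986114 (E2f3, - strand), chr10:110745201-110745288 (E2f7, + strand) and chr2:157204535-157204592 (Rbl1, - strand), the last 3 before the start.
E2f2: gcggcatatagTTTGGCGCtaa
E2f3: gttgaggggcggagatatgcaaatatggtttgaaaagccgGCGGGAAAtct
E2f7: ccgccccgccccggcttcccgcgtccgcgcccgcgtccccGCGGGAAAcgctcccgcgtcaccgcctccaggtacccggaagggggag
Rbl1: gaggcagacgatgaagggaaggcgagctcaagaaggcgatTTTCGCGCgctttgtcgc
Among 25 S-phase genes listed as E2F targets, 21 had a window and 11 of these had a match. For 3 of them the match before the start is shown as an example, at chr10:69353025-69353054 for the mitotic kinase gene Cdk1 (- strand), chr11:98908002-98908031 for the replication licensing gene Cdc6 (+ strand) and chr9:109875501-109875530 for the phosphatase gene Cdc25a (+ strand).
Cdk1: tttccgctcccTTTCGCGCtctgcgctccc
Cdc6: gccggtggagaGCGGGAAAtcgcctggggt
Cdc25a: ggtgaattccgTTTGGCGCcaactaggaaa

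All values below are log2 signals of one-colour arrays after quantile normalisation, a difference of 1 on this scale is a doubling of the signal, and levels of different probes are not set against each other. The median signal before normalisation ranged from 32.7 to 108 between arrays, and 61.1% to 82.7% of probes were well above background. Each genotype lay on a slide of its own, so that genotype and slide cannot be told apart in direct comparisons of genotypes, whereas each comparison of LPS with medium lay within 1 slide. The Mapkapk2 probe, which reports MK2, read 10.77 to 12.39 in wt and 8.34 to 9.01 in both knockouts in medium, and under LPS it read 14.28 to 15.33 in wt and 10.86 to 11.95 in both knockouts. The Mapkapk3 probe, which reports MK3, read 10.94 to 11.40 in MK2/3-/- BMDM in medium and 7.65 to 8.55 under LPS, below the lowest wt and MK2-/- arrays of the same treatment (12.39 and 11.92). Where these probes lie relative to the deleted parts was not given in the sources used here. Both MK2-/- arrays of replicate 3 lacked the signal of the Y-linked genes Ddx3y and Eif2s3y (1.99 to 3.31, against 10.09 or more on all other arrays), against their label as male, and the LPS array of this pair had 2927 flagged spots where the others had 115 to 261. In medium, wt replicate 4 had an Il6 signal of 13.36, against 6.41 to 10.02 in the other wt medium arrays. All 6 macrophage markers with a matched probe (Adgre1, Csf1r, Itgam, Fcgr1, Mertk, Lyz2) were well above background on all arrays. This alone does not set macrophages apart. The same held for 2 of 4 T cell, 1 of 4 B cell, 3 of 4 neutrophil and progenitor and 3 of 4 dendritic cell markers with a probe. It also held for 3 of 4 fibroblast, 2 of 3 mast cell and 0 of 2 erythroid markers. The fibroblast collagen gene Col1a1 ranged from 4.89 to 14.99 between arrays and its LPS differences of -0.39 in MK2-/- and 0.34 in MK2/3-/- BMDM did not pass the test (adjusted p = 0.896 and 0.91).

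LPS lowered E2f2 more than any other member in each genotype, which in wt BMDM follows in part from how the set was chosen. The plot of each member's values by array shows the 10 genes in the 6 groups.

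**Figure D1:**
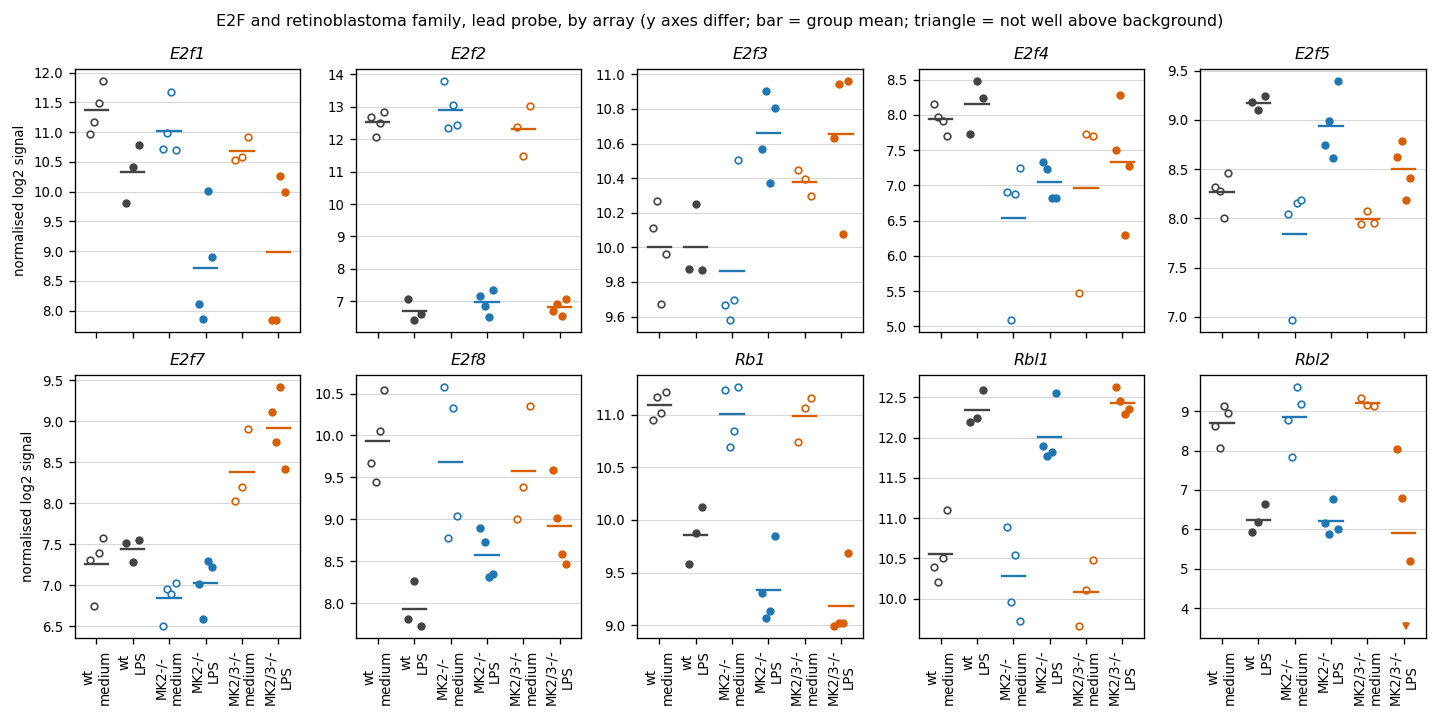
Normalised log2 signal of the lead probe of each of the 10 members (y axis, its range differs between panels) on each of 22 arrays in 6 groups (x axis); open circles are medium, filled symbols LPS, horizontal bars group means, and a triangle an array on which the probe was not well above background. E2f2 lies at 11.47 or above in medium and at 7.34 or below under LPS in all 3 genotypes, and Rbl1 and E2f5 are the members with all LPS arrays above all medium arrays in each genotype. LPS and medium arrays did not overlap, in either direction, for 49% of all probes in wt, 42.2% in MK2-/- and 50.5% in MK2/3-/- BMDM.

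E2f2, an activator E2F, read 12.70, 12.08, 12.48 and 12.84 in wt BMDM in medium and 7.07, 6.43 and 6.61 after LPS. MK2-/- BMDM gave 13.80, 12.35, 13.04 and 12.43 in medium and 7.18, 6.85, 6.51 and 7.34 after LPS. MK2/3-/- BMDM gave 12.39, 11.47 and 13.04 in medium and 6.71, 6.93, 6.54 and 7.07 after LPS. In each knockout all LPS arrays lay below all medium arrays, and the same held in wt BMDM, where E2f2 was picked for its fall. Probes whose groups did not overlap, in either direction, made up 42.2% of all probes in MK2-/- and 50.5% in MK2/3-/- BMDM. The E2f2 probe was still well above background on every array. The fall was 5.82 on the log2 scale in wt BMDM (a description), which is 56.6-fold. The fall in MK2-/- BMDM was 61.3-fold (log2 difference -5.94, 95% confidence interval -6.63 to -5.25, limma adjusted p = 7.74e-11), and that in MK2/3-/- BMDM was 44.9-fold (log2 difference -5.49, interval -6.23 to -4.74, adjusted p = 5.4e-10). Counted from the deepest fall, this was place 35 of 28103 probes in MK2-/- and place 93 in MK2/3-/- BMDM. The LPS differences of MK2/3-/- and MK2-/- BMDM differed by 0.45 with an interval from -0.57 to 1.47 (adjusted p = 0.855). In bulk RNA, fewer cells that express a gene and less RNA per cell cannot be told apart, and this holds for every value here.

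Of the 10 members, counted by their lead probe (the probe with the highest mean signal), 8 passed the test for LPS against medium in MK2-/- BMDM (adjusted p below 0.05), 3 higher (E2f3, E2f5, Rbl1) and 5 lower (E2f1, E2f2, E2f8, Rb1, Rbl2). Of all probes 45.4% passed in this comparison, 17.6% higher and 27.8% lower, and the median log2 difference was -0.46 over the 10 members and -0.04 over all probes. Without both arrays of replicate 3, 7 of 10 passed and E2f8 was lost. In MK2/3-/- BMDM 5 of 10 passed, 1 higher (Rbl1) and 4 lower (E2f1, E2f2, Rb1, Rbl2), where 48.6% of all probes passed, 20.1% higher and 28.5% lower, and the medians were -0.19 and -0.02. Both counts depend on the probe used: by their other probes, E2f3 was called higher and E2f7 lower in each knockout, as given below. The mean that sets the lead probe covers LPS and medium arrays, so a probe that falls under LPS is less likely to be chosen. Scaling each array to its 75th percentile in place of quantile normalisation moved the median of all probes to 0.26 in both genotypes and the higher share of the calls from 38.8% to 52.6% in MK2-/- and from 41.4% to 53.3% in MK2/3-/- BMDM, with each called lead probe still called in the same direction. A member that passed in MK2-/- and not in MK2/3-/- BMDM is not shown to differ between them: none of 10 members passed the test of that difference (limma, 0.0676% of all probes passed; 0 members at an unadjusted p below 0.05).

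**Figure D2:**
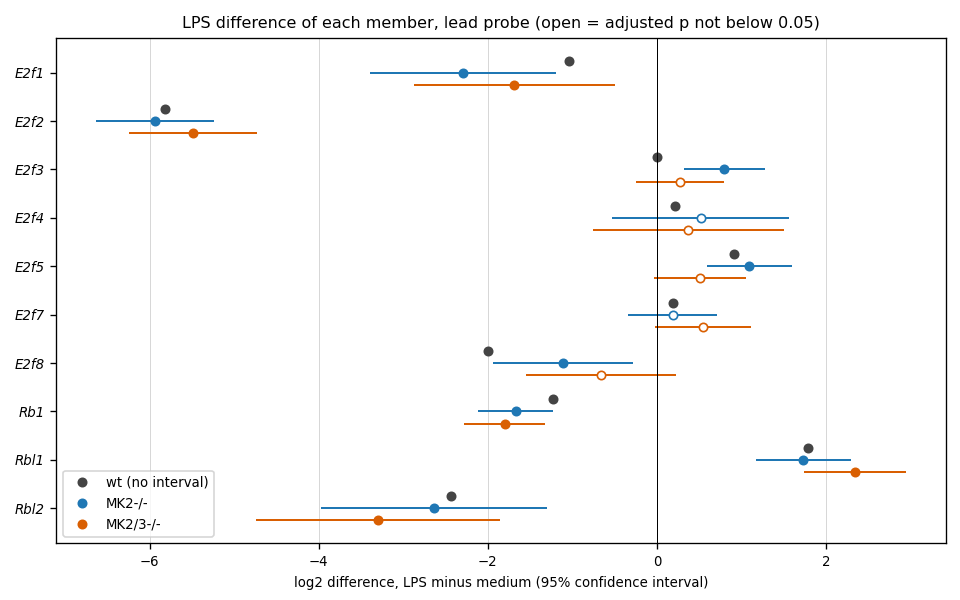
Log2 difference of LPS minus medium (x axis) for the lead probe of each of 10 members (y axis) in wt (grey), MK2-/- (blue) and MK2/3-/- (orange) BMDM; lines are 95% confidence intervals, wt is drawn without interval because it was used to pick the genes, and open symbols did not pass the test. E2f1, E2f2, Rb1 and Rbl2 lie left of 0 and Rbl1 right of 0 with intervals that leave out 0 in both knockouts.

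E2f1, an activator and itself an E2F target, fell by less than E2f2. It read 10.97, 11.17, 11.49 and 11.86 in wt medium and 9.81, 10.42 and 10.78 under LPS, a difference of -1.04. In MK2-/- BMDM it read 10.71, 10.99, 11.67 and 10.69 in medium and 8.12, 7.87, 10.02 and 8.90 under LPS, and in MK2/3-/- BMDM 10.54, 10.58 and 10.91 in medium and 7.85, 7.85, 10.26 and 10.00 under LPS. Within each genotype the LPS and medium arrays did not overlap, and the LPS arrays of both knockouts were widely spread (SD 0.97 and 1.32, against 0.49 in wt). Here and for the members below, absence of overlap was common: it held for 49% of all probes in wt, 42.2% in MK2-/- and 50.5% in MK2/3-/- BMDM. The differences were -2.29 in MK2-/- (interval -3.38 to -1.20, adjusted p = 0.00116) and -1.69 in MK2/3-/- BMDM (interval -2.86 to -0.51, adjusted p = 0.0177). In MK2/3-/- BMDM the call was lost in 3 of the 22 fits that leave out 1 array, those without LPS replicate 1 or 2 or medium replicate 3, with adjusted p up to 0.0656. On the 4 LPS arrays of MK2/3-/- BMDM, Col1a1 read 5.77, 7.26, 10.60 and 13.16 in the order of the replicates. In this group the low E2f1 arrays were also those with less collagen signal. In MK2-/- BMDM under LPS Col1a1 read 7.26, 6.90, 10.23 and 12.10. Replicates 1 and 2, the lowest for E2f1, were again the lowest for Col1a1, while the highest array differed between these genes. In wt BMDM under LPS Col1a1 read 13.56, 11.59 and 12.50, highest on the array with the lowest E2f1. The median deviation of the 25 S-phase genes from their means over all arrays was -2.76, -2.13, -0.89 and -0.31 on the same 4 MK2/3-/- LPS arrays, and -0.24 to 0.26 on the wt LPS arrays. Their part in the E2f1 result was not tested.

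E2f3, the remaining activator, was not called lower in either knockout. Its lead probe read 9.67 to 10.27 in wt medium and 9.87 to 10.25 under LPS, with a difference of 0.00 to 2 decimals. It rose in MK2-/- BMDM by 0.80 (interval 0.33 to 1.27, adjusted p = 0.00647), from 9.67, 9.58, 9.69 and 10.51 to 10.57, 10.90, 10.37 and 10.80, where medium replicate 4 lay within the LPS range. The difference in MK2/3-/- BMDM was 0.28 (interval -0.23 to 0.79, adjusted p = 0.38). The other E2f3 probe, for the same transcript, was higher under LPS without overlap in every genotype, by 0.99 in wt BMDM and, in the knockouts, by 1.33 without MK2 (adjusted p = 3.82e-05) and by 1.14 without both kinases (adjusted p = 0.000396). The 2 probes thus differed in wt and MK2/3-/- BMDM, and E2f3 in these genotypes has no single value.

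Neither repressor E2F gene was called lower. E2f5 read 8.0 to 8.46 in wt medium and 9.10 to 9.24 under LPS, a difference of 0.91. E2f5 rose in MK2-/- BMDM by 1.09 (interval 0.60 to 1.59, adjusted p = 0.000739), from 8.05, 6.97, 8.16 and 8.19 to 8.75, 8.99, 8.61 and 9.40. In MK2/3-/- BMDM the arrays read 7.94, 8.08 and 7.95 in medium and 8.63, 8.79, 8.19 and 8.41 under LPS. These groups did not overlap, but the difference of 0.51 did not pass the test (interval -0.02 to 1.05, adjusted p = 0.106), and it passed with 75th percentile scaling (0.57, adjusted p = 0.0322), with array weights (0.61, adjusted p = 0.0167) and without MK2-/- medium replicate 2 (adjusted p = 0.0266). E2f4, the other repressor, differed by 0.22 in wt, 0.52 in MK2-/- (interval -0.52 to 1.56, adjusted p = 0.434) and 0.37 in MK2/3-/- BMDM (interval -0.75 to 1.5, adjusted p = 0.607). The E2f4 intervals are wide. Single arrays stood low, at 5.09 in MK2-/- medium replicate 2 and 5.47 in MK2/3-/- medium replicate 1, and the MK2/3-/- LPS arrays spread from 6.30 to 8.28.

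The atypical repressors gave the least uniform picture. E2f8 read 9.67, 9.45, 10.06 and 10.55 in wt medium and 7.81, 8.27 and 7.73 under LPS, a difference of -1.99. E2f8 fell in MK2-/- BMDM by 1.11 (log2 difference -1.11, interval -1.92 to -0.29, adjusted p = 0.0254), and this call was lost without both arrays of replicate 3 (-0.81, adjusted p = 0.164) and in 4 of the 22 fits that leave out 1 array (without LPS replicate 3 or 4 or medium replicate 1 or 3). Its difference in MK2/3-/- BMDM was -0.66 (interval -1.54 to 0.22, adjusted p = 0.212). The E2f8 response in MK2/3-/- less that in wt BMDM was 1.33 (interval 0.09 to 2.58), with an unadjusted p of 0.0372 and an adjusted p of 0.372, so a smaller fall in MK2/3-/- BMDM was not established.

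E2f7 was measured with 2 probes for the same transcript, and they moved apart. The lead probe read 7.30, 6.74, 7.39 and 7.58 in wt medium and 7.51, 7.28 and 7.55 under LPS. Its LPS differences were 0.19 in wt, 0.19 in MK2-/- (interval -0.33 to 0.70, adjusted p = 0.581) and 0.55 in MK2/3-/- BMDM (interval -0.01 to 1.1, adjusted p = 0.0987), and none passed. The other probe read 9.26, 8.80, 9.70 and 10.10 in wt medium and 7.0, 5.26 and 5.64 under LPS, a difference of -3.50. It fell in both knockouts, with log2 differences of -4.13 in MK2-/- (interval -5.42 to -2.83, adjusted p = 1.75e-05) and -3.97 in MK2/3-/- BMDM (interval -5.37 to -2.56, adjusted p = 6.23e-05). Under LPS this probe was not well above background on 1 of 4 MK2-/- and 2 of 4 MK2/3-/- arrays, so the size of the fall there is less certain than its direction. Which of the 2 probes follows the E2f7 mRNA cannot be read from these arrays. The plot of the genes with 2 probes shows both readings side by side.

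**Figure D3:**
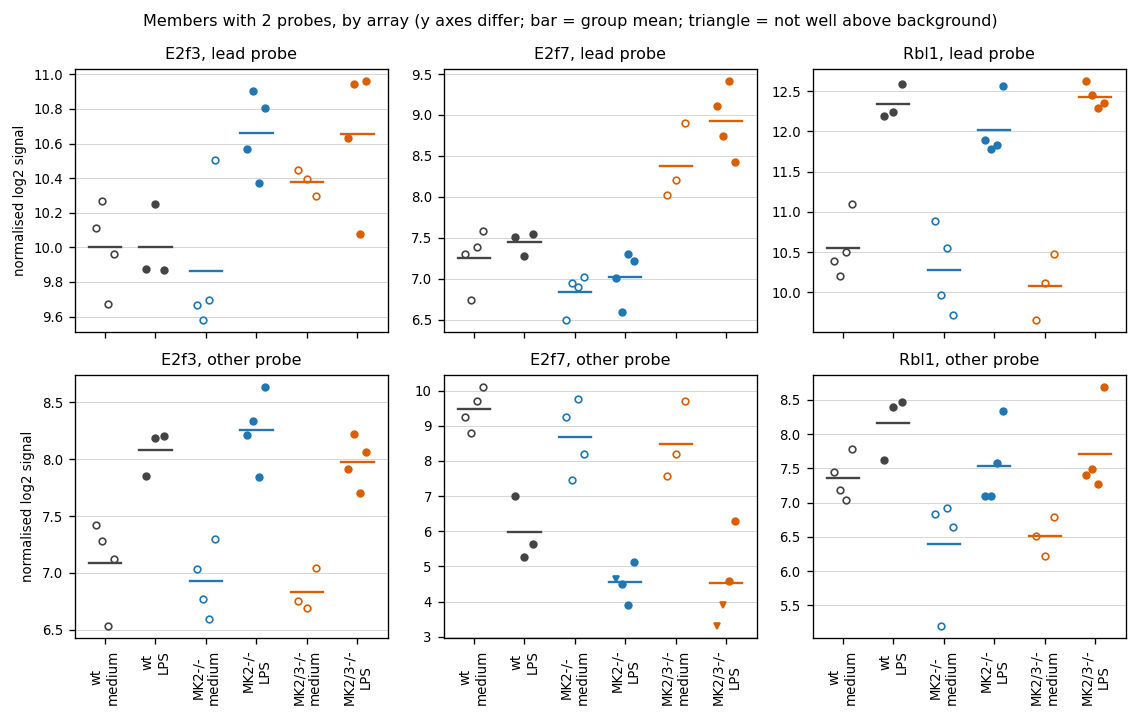
Normalised log2 signal (y axis, its range differs between panels) of both probes of E2f3, E2f7 and Rbl1 on each of 22 arrays in 6 groups (x axis); open circles are medium, filled symbols LPS, bars group means, and triangles arrays on which the probe was not well above background. The lead E2f7 probe is raised in MK2/3-/- BMDM at both treatments, and the other E2f7 probe drops from 7.47 or more in medium to 7.0 or less under LPS in all genotypes.

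Of the 3 pocket protein genes, Rb1 and Rbl2 fell and Rbl1 rose in both knockouts. Rb1, the retinoblastoma protein itself, read 10.95, 11.17, 11.01 and 11.22 in wt medium and 9.59, 9.87 and 10.13 under LPS. In MK2-/- BMDM it read 11.24, 10.69, 10.84 and 11.26 in medium and 9.31, 9.07, 9.13 and 9.85 under LPS, and in MK2/3-/- BMDM 10.74, 11.06 and 11.15 in medium and 8.99, 9.03, 9.03 and 9.69 under LPS. The groups did not overlap in any genotype, and the probe was the mean of 10 spots on each array. Its log2 differences were -1.23 in wt, -1.67 in MK2-/- (interval -2.10 to -1.24, adjusted p = 1.72e-06) and -1.80 in MK2/3-/- BMDM (interval -2.27 to -1.33, adjusted p = 1.69e-06).

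Rbl2 encodes p130, the pocket protein typical of resting cells. It read 8.61, 8.07, 9.13 and 8.95 in wt medium and 5.93, 6.19 and 6.63 under LPS, a difference of -2.44. The MK2-/- arrays read 8.76, 7.83, 9.61 and 9.17 in medium and 6.17, 5.88, 6.78 and 6.00 under LPS (difference -2.63, interval -3.96 to -1.31, adjusted p = 0.00191). The MK2/3-/- arrays read 9.32, 9.15 and 9.13 in medium and 8.04, 6.80, 3.55 and 5.21 under LPS (difference -3.30, interval -4.73 to -1.87, adjusted p = 0.000488). All LPS arrays lay below all medium arrays of their genotype, but the MK2/3-/- LPS arrays spanned more than 4 log2 units, and LPS replicate 3, the lowest, was not well above background.

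Rbl1, which encodes p107 and is itself a classical E2F target, rose. Its lead probe read 10.39, 10.20, 10.50 and 11.10 in wt medium and 12.19, 12.24 and 12.59 under LPS, a difference of 1.79. In MK2-/- BMDM it read 10.89, 9.96, 10.55 and 9.73 in medium and 11.89, 11.78, 11.83 and 12.56 under LPS (difference 1.73, interval 1.18 to 2.28, adjusted p = 1.85e-05). In MK2/3-/- BMDM it read 9.66, 10.11 and 10.48 in medium and 12.63, 12.45, 12.29 and 12.36 under LPS (difference 2.35, interval 1.75 to 2.94, adjusted p = 1.17e-06). The LPS and medium arrays did not overlap in any genotype. A probe for a different Rbl1 transcript differed in the same direction, by 0.80 in wt with overlapping groups, and by 1.13 and 1.2 in MK2-/- and MK2/3-/- BMDM (adjusted p = 0.0224 and 0.0225). The latter 2 calls were lost in 2 and 3 of the 22 fits that leave out 1 array: without MK2-/- LPS replicate 4 or medium replicate 2, and without MK2/3-/- LPS replicate 4 or medium replicate 1 or 2.

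Between genotypes most members did not pass the test, and E2f7, by its lead probe, was called most often. E2f7 read 8.03, 8.20 and 8.90 in MK2/3-/- BMDM in medium and 9.11, 8.74, 9.42 and 8.42 under LPS, above all wt arrays (at most 7.58) and all MK2-/- arrays (at most 7.30). Between MK2/3-/- and wt BMDM, 28.4% of all probes had no overlap under LPS and 24.3% in medium. Against MK2-/- BMDM these shares were 14.3% and 18%. Under LPS it was higher in MK2/3-/- BMDM by 1.48 against wt (interval 0.92 to 2.03, adjusted p = 0.000819) and by 1.89 against MK2-/- BMDM (interval 1.38 to 2.41, adjusted p = 6.45e-05). In medium it was higher by 1.12 against wt (interval 0.57 to 1.68, adjusted p = 0.0393) and by 1.53 against MK2-/- BMDM (interval 0.98 to 2.09, adjusted p = 0.003), the first of which was lost in 8 of the 22 fits that leave out 1 array (any of the 4 wt or the 3 MK2/3-/- medium arrays, or MK2-/- LPS replicate 1), with adjusted p up to 0.139. The other E2f7 probe was not raised, with differences between MK2/3-/- and wt BMDM of -1.45 and -0.98 under LPS and in medium (adjusted p = 0.124 and 0.487). Slide and genotype cannot be told apart in these comparisons.

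Under LPS, E2f7 and Rb1 were the 2 of 9 tested members that differed between MK2/3-/- and wt BMDM, where 23.7% of all probes did. Rb1 was lower in MK2/3-/- BMDM by a log2 difference of -0.68 (interval -1.15 to -0.21, adjusted p = 0.035), the groups overlapped, and the call was lost in 5 of the 22 fits that leave out 1 array (wt LPS replicate 2 or 3, or MK2/3-/- LPS replicate 1, 2 or 3). E2f7 alone of 10 differed between MK2/3-/- and MK2-/- BMDM, both under LPS (13.4% of all probes) and in medium (2.68%), and alone of 9 between MK2/3-/- and wt BMDM in medium (1.92%). None of 9 tested members differed by limma between MK2-/- and wt BMDM, under LPS (11.6% of all probes; 3 members at an unadjusted p below 0.05; 4 by the methods' t-test unadjusted and 0 after adjustment) or in medium (7.9% of all probes; 1 member unadjusted; 1 by the methods' t-test unadjusted and 0 after adjustment). E2f1 had the lowest difference between MK2-/- and wt BMDM under LPS, -1.61 (interval -2.79 to -0.44, adjusted p = 0.0668), and E2f4 the lowest in medium, -1.40 (interval -2.44 to -0.36, adjusted p = 0.0857). E2f2, given without test, differed from wt by 0.27 in MK2-/- and 0.11 in MK2/3-/- BMDM under LPS and by 0.38 and -0.22 in medium.

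No member's LPS response was shown to depend on genotype. None of 9 tested members passed for MK2-/- less wt (limma, 0% of all probes passed; 1 member, E2f3, at an unadjusted p below 0.05) or for MK2/3-/- less wt (0.979% of all probes; 1 member, E2f8, unadjusted). The E2f3 value was 0.80 (interval 0.11 to 1.5, adjusted p = 0.615). The E2f2 response differed from that of wt by -0.11 in MK2-/- and by 0.34 in MK2/3-/- BMDM. Both comparisons share the wt arrays.

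The genes around the family were counted in the same fits, by lists of partners, upstream regulators and targets. The first list of 10 genes mixes Tfdp1, Tfdp2, E2f6, Mybl2 and Foxm1 with subunits of the DREAM complex (Lin9, Lin37, Lin52, Lin54, Rbbp4). This complex joins E2F and pocket proteins to repress cell cycle genes. In each of MK2-/- and MK2/3-/- BMDM 7 of 10 were lower and none higher, and Lin52, Lin54 and Mybl2 did not pass. E2f6, a repressor that works without pocket proteins, fell most, with log2 differences of -3.13 in MK2-/- and -3.52 in MK2/3-/- BMDM (adjusted p = 2.08e-08 and 1.39e-08). Tfdp2 and Tfdp1, which encode the DP partners, fell in both: Tfdp2 differed by -2.42 and -2.18 and Tfdp1 by -1.0 and -1.15 (adjusted p at most 0.000504). Foxm1, a mitotic transcription factor, differed by -2.79 and -1.5 (adjusted p = 9.37e-06 and 0.00704), the latter lost without MK2/3-/- medium replicate 3 (adjusted p = 0.0567). The median of the list was -1.0 and -0.97, where that of all probes was -0.04 and -0.02. Lower calls made up 27.8% of all probes in MK2-/- and 28.5% in MK2/3-/- BMDM.

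Of 8 G1 cyclins and their kinases, 2 rose and 2 fell in MK2-/- and 2 rose and 3 fell in MK2/3-/- BMDM. Among all probes 17.6% rose and 27.8% fell in MK2-/-, and 20.1% rose and 28.5% fell in MK2/3-/- BMDM. Whether the list departs from these shares was not tested. Ccnd2, a D-type cyclin that drives phosphorylation of Rb1, rose by 7.77 and 7.72 on the log2 scale (adjusted p = 1.58e-10 and 4.99e-10). It read 7.86 to 9.03 in MK2-/- medium and 15.78 to 16.18 under LPS, and 7.73 to 9.11 and 16.04 to 16.25 in MK2/3-/- BMDM. Cdk6, a partner of D-type cyclins, rose by 2.95 and 2.14, while Cdk2 (-2.77 and -2.07) and Cdk4 (-1.61 and -1.42) fell. The G1 kinases thus moved in opposite directions, and the list's median was -0.12 and -0.26.

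Of 7 CDK inhibitors, 2 rose and 1 fell in each knockout. The shares of all probes were 17.6% higher and 27.8% lower in MK2-/-, and 20.1% and 28.5% in MK2/3-/- BMDM. A departure of this list from them was not tested. Cdkn1a (p21) rose by 2.85 in MK2-/- and 3.75 in MK2/3-/- BMDM (adjusted p = 1e-07 and 8.79e-09), and Cdkn2b (p15) rose by 2.57 and 1.21. Cdkn2c (p18), which is also an E2F target, fell, with log2 differences of -4.16 and -4.67 (adjusted p = 8.6e-08 and 5.78e-08). The remaining 4, among them Cdkn1b (p27) and Cdkn2a, did not pass, and the list's median was 0.03 and 0.26.

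Of the 25 S-phase genes held as E2F targets, 19 were lower and 1 higher in MK2-/- BMDM, where 27.8% of all probes were lower, and 19 were lower and 2 higher in MK2/3-/- BMDM, where 28.5% of all probes were lower, with medians of -2.25 and -2.33. The MK2/3-/- count fell to 10 lower and 1 higher by the methods' t-test after adjustment, and to 15 lower without medium replicate 3. In wt BMDM the median was -1.54. Rrm2, a ribonucleotide reductase subunit, fell, with log2 differences of -5.17 and -4.42 (adjusted p = 3.76e-06 and 5.59e-05), as did Mcm2, a helicase subunit (-3.06 and -4.11), which was well above background on 3 of 4 LPS arrays in MK2/3-/- BMDM. The cyclin gene Ccna2 fell as well (-4.06 and -3.95), and so did its kinase Cdk1, whose promoter match is printed above (-3.28 and -3.67). Tyms, thymidylate synthase, went against the list and rose by 1.81 and 2.43 (adjusted p = 3.18e-06 and 2.03e-07), and the checkpoint kinase Chek1 rose by 0.60 in MK2/3-/- BMDM (adjusted p = 0.0135), a call lost with only the groups compared (adjusted p = 0.0716). The spread between arrays was wide: Rrm2 read 6.37 to 10.11 on the 4 MK2/3-/- LPS arrays. In the same direction, 4 of 6 mitosis genes were lower in MK2-/- and 6 of 6 in MK2/3-/- BMDM, among them Plk1 (-4.29 and -3.67) and Top2a (-3.59 and -3.50). Bub1 differed by -4.24 and -5.04, and was well above background on only 2 of 4 LPS arrays in each knockout.

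**Figure D4:**
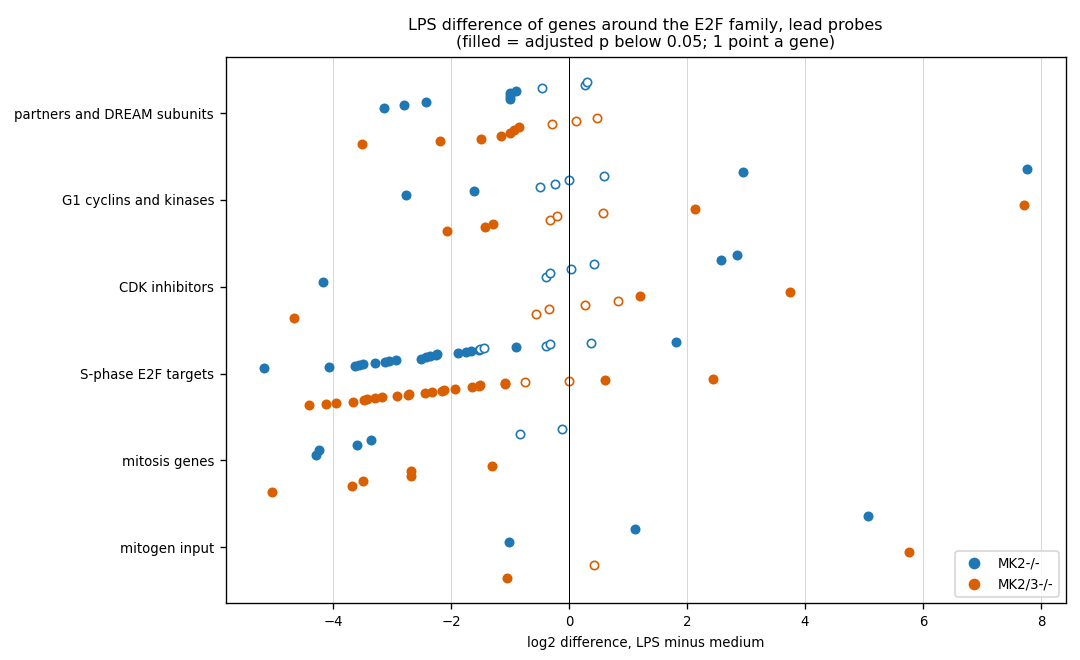
Log2 difference of LPS minus medium (x axis) for each gene of 6 lists (y axis) in MK2-/- (blue, upper row of each list) and MK2/3-/- BMDM (orange, lower row); 1 point stands for 1 gene, filled points passed the test at adjusted p below 0.05. Most S-phase and mitosis genes lie left of 0, Tyms stands apart on the right at 1.81 and 2.43, and Ccnd2 lies at 7.77 and 7.72.

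Of the 3 mitogen genes 2 rose and 1 fell in MK2-/- BMDM, and 1 rose and 1 fell in MK2/3-/- BMDM. For all probes the shares were 17.6% higher and 27.8% lower in MK2-/-, and 20.1% and 28.5% in MK2/3-/- BMDM. Csf1, which encodes M-CSF, rose by 5.06 and 5.76 on the log2 scale (adjusted p = 0.000106 and 5.81e-05). Its receptor gene Csf1r fell, with differences of -1.01 and -1.04 (adjusted p = 2.5e-06 and 4.22e-06), but with 75th percentile scaling they were -0.31 and -0.08 and neither passed (adjusted p = 0.206 and 0.787). Myc, a transcription factor that drives growth, rose by 1.11 in MK2-/- BMDM (adjusted p = 0.0466) with a difference of 0.42 in MK2/3-/- BMDM (adjusted p = 0.502). The Myc call was lost in 12 of the 22 fits that leave out 1 array (without wt LPS replicate 1, 2 or 3 or medium replicate 2, MK2-/- LPS replicate 1, 3 or 4 or medium replicate 1 or 3, or MK2/3-/- LPS replicate 1 or 4 or medium replicate 2; adjusted p up to 0.174), and without both MK2-/- arrays of replicate 3 the difference was 0.76 (adjusted p = 0.25). Csf1r is also one of the macrophage markers, whose summed signal on the log2 scale was 18.94 to 19.40 in medium and 17.93 to 18.39 under LPS over all genotypes. The summed fibroblast markers ranged from 9.28 to 16.66 in medium and from 9.80 to 15.89 under LPS. Of 4 dendritic cell markers 2 (Ccr7 and Zbtb46) rose in each knockout and 1 (Flt3) fell in MK2-/- BMDM, by a log2 difference of -1.81 (adjusted p = 0.000526), and the summed signal of the 4 was 11.05 to 13.59 in medium and 12.84 to 15.23 under LPS. The part of any of these in the members' values was not tested.

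The genes most like E2f2 were found by the root mean square difference over the 22 arrays after each probe's own mean was removed, among 17519 other genes. The nearest were Ypel3 (0.54), Klhl6 (0.56), Lonrf3 (0.67), Cebpa (0.68) and Tef (0.69), all with high signal in medium and low signal under LPS. Ypel3 read 15.64 ± 0.15 in MK2-/- medium and 10.44 ± 0.36 under LPS (mean ± SD, n = 4 each), and Cebpa, a transcription factor of myeloid cells, 12.93 ± 0.29 and 7.01 ± 0.40. None of the 5 is on the lists of cell cycle genes used here. These lists hold few of the 17519 genes, so their absence was likely beforehand and nothing is concluded from it. The 22 arrays also include the wt arrays by which the set was chosen. For the other members the nearest genes were Metrn for E2f1 (0.35), Krcc1 for E2f3 (0.21), Ppif for E2f4 (0.52), Chac2 for E2f5 (0.21), Gm5901 for E2f7 (0.27), Zkscan17 for E2f8 (0.44), Fars2 for Rb1 (0.22), Slc25a12 for Rbl1 (0.30) and Fbxo21 for Rbl2 (0.67).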

How the data were processed

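One-colour Agilent 8x60K arrays of 22 BMDM samples were scanned and quantified by the authors with Agilent Feature Extraction 11.0.1.1 (per the file headers), and the deposited files hold spot intensity values, background-corrected as processed signals. The deposited value table holds the authors' log2 values, quantile normalised and set to each probe's median over the samples, and was used as an alternative (correlation with the values used here 0.993 to 0.999 per array). Here, control spots (3671 per array) were removed, non-uniform and population outlier spots set to missing, log2 processed signals quantile normalised over all arrays, and spots of a probe averaged. Only probes that carry an NCBI accession and rose well above background on 3 or more arrays were tested. limma 3.58.1 in R 4.3.3 fitted a mean for each of 6 groups, and p-values (two-sided) were adjusted by Benjamini-Hochberg over 28103 probes, with a threshold of 0.05. The study's methods give 4 independent experiments for each time point. The labels do not name the mice, but the MK2-/- replicates of each treatment were labelled with different mouse ages. The p-values measure the spread between these samples. The number of arrays, 3 or 4 a group, limits the precision. The fit was tested on simulated data.

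The members were those given by name; the lead probe is the one with the highest mean signal, and in each list up to 4 genes with the largest differences in MK2/3-/- BMDM and those against the list's direction were named. Members, lists and tests were chosen with earlier results of these data known. Gene names came from RefSeq accessions (27509 of 29150 RefSeq probes matched), and promoter windows from RefSeq, build GRCm38.p6; the probes' own positions were not used. Alternatives were 75th percentile scaling, normexp correction (offset 50, on median spot signals, a column chosen after seeing the data), the authors' values, other filters and spot handling, 1 probe per gene, only the groups compared, replicate blocks, array weights, the methods' t-test, and leaving out arrays. Same-numbered LPS and medium arrays of a genotype deviated together (r above 0.1) in 7 of 10 pairs, and 8 of these 10 had equal mouse age. Pairs with the same letter in the array names did so in 7 of 10, and all 10 had equal mouse age. Pairs with different letters did so in 5 of 30, and 5 of these 30 had equal age. Both MK2-/- arrays without Y-linked signal carried the same letter. The labels do not state a pairing, and the reported fit treated the arrays as unpaired.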

Additional observations from a re-analysis of the deposited data

Results flagged for a closer look

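Values of 13 probes in the groups of 4 arrays were screened for single arrays far from the other 3 by Dixon's ratio at its 95% critical value. Of 52 groups 6 were marked, and chance marks about 1 in 20. In MK2-/- medium, E2f3 (lead probe) read 10.5 on replicate 4, above the other 3, and E2f5 and the second Rbl1 probe read 6.97 and 5.2 on replicate 2, below the other 3. Under LPS, the lead Rbl1 probe read 12.6 on MK2-/- replicate 4, and Rb1 and the second Rbl1 probe read 9.69 and 8.69 on MK2/3-/- replicate 4, each above the other 3. These last 2 arrays also had the highest Col1a1 signals of their groups (12.10 and 13.16); their part in these values was not tested.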

How the results depend on the processing

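The counts of members called for LPS against medium stayed at 7 to 8 of 10 in MK2-/- and at 4 to 6 of 10 in MK2/3-/- BMDM when any 1 array was left out, and the latter fell to 3 with the methods' t-test after adjustment. For MK2-/- against wt under LPS (0 called), 75th percentile scaling, fitting only the groups compared, and leaving out both low-Y arrays (chosen after seeing the data) each gave 1, array weights 3 and the unadjusted t-test 4, with 0 to 2 when 1 array was left out. For MK2/3-/- against wt under LPS (2 called), 75th percentile scaling and array weights gave 5, normexp and the unadjusted t-test 4, only the groups compared 1 and the adjusted t-test 0, with 1 to 3 when 1 array was left out. In medium, MK2-/- against wt (0 called) gave 1 by the unadjusted t-test and 0 to 1 when 1 array was left out. MK2/3-/- against wt in medium (1 called) gave 0 with only the groups compared and by the adjusted t-test, 2 by the unadjusted t-test and 0 to 1 when 1 array was left out. MK2/3-/- against MK2-/- in medium gave 0 by the adjusted t-test. The causes were not tested. Counts for the 3 differences of LPS responses stayed at 0 in every fit. One direction turned: E2f4 in MK2/3-/- BMDM, not called, went from 0.37 to -0.37 without 1 array (leave-one-out range -0.37 to 0.75). With only the groups compared the E2f1 call in MK2/3-/- BMDM was lost (adjusted p = 0.0788). The S-phase list in MK2/3-/- BMDM fell from 21 calls to 11 by the adjusted t-test, and with 75th percentile scaling the mitogen list fell from 2 to 1 by the loss of Csf1r. The Myc call in MK2-/- BMDM was also lost with no filter on dim probes (adjusted p = 0.0685), with only the groups compared (0.0989) and by the methods' t-test, and that of Mcm2 in MK2/3-/- BMDM by the adjusted t-test (0.0834). Replicate number within genotype as a block left the counts for LPS at 8 and 5 and changed no other count of members. The pairing this block assumes was not established, and only 8 of its 10 pairs had equal mouse age. Its consensus correlation was 0.118, and that by the letter of the array names was 0.143. Under 75th percentile scaling the higher share of all calls between genotypes moved from 36.0% to 62.6% (MK2-/- against wt), 37.3% to 55.8% (MK2/3-/- against wt) and 55.3% to 67.4% (MK2/3-/- against MK2-/-) under LPS, and from 61.0% to 83.9%, 66.1% to 90.3% and 67.3% to 88.3% in medium.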
